A study of Arabidopsis thaliana with 24 samples.

Results

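The first hour of warmth in seedlings of the Arabidopsis mutant ino80-5, called ino80 here, was measured in 6 of the 24 RNA-seq libraries of a series on whole seedlings. All plants were of the ecotype Col and 7 days old, and had been raised at 21 °C in short days. For ino80, 3 libraries came from seedlings moved to 27 °C for 1 h and 3 from seedlings held at 21 °C for the same hour. Wild-type Col given the same pair of treatments, with 3 libraries each, lay in the same 1 h table and serves as the comparison for the mutation, which both ino80 groups carry. A table of ino80 after 12 h at 21 °C or 27 °C, with 3 libraries each, is set beside the 1 h values. Of 23390 genes in the 1 h table, 19190 reached 1 TPM (transcripts scaled to a fixed total per library) in at least 3 of its 12 libraries and were tested, and 4200 were not. The change of a gene is the difference of the group means of log2(TPM + 1), 27 °C minus 21 °C, given ± SE with n = 3 per group. The added 1 makes the change of a low gene smaller. A gene is said to have risen or fallen where limma's two-sided test gave an adjusted p under 0.05 over all tested genes.

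INO80 is the ATPase of a complex that slides and remodels nucleosomes, and in plants it takes part in transcription, DNA repair and responses to the environment. In Arabidopsis, mild warmth below the range that damages cells speeds the elongation of stems and leaf stalks, a response known as thermomorphogenesis, in which the transcription factor PIF4, auxin and gibberellin act. A rise in temperature also releases heat shock factors from their chaperones, and these factors bind heat shock elements in the promoters of chaperone genes.

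The 6 ino80 libraries held an estimated 15.6 to 22.6 M fragments and left 1439 to 1676 genes at 0. That estimate, from the steps between low TPM values, is rough, since 35.4% to 40.2% of low values lay within 5% of a whole step. Replicates correlated at r = 0.992 to 0.995 across genes, which are not independent of one another. Nothing in the labels says that replicates were grown apart, so p-values measure the spread between these libraries, which may be technical. INO80 (AT3G57300) read 13.1, 14.8 and 12.6 TPM at 21 °C and 10.9, 11.6 and 11.41 at 27 °C, a change of -0.24 ± 0.08, adjusted p = 0.043. The groups did not overlap, but the call was lost under 9 alternatives, with adjusted p of 0.0512 to 0.171. Among them were leaving out ino80 21 °C replicate 1 or 2, any ino80 27 °C library, Col 21 °C replicate 3 or Col 27 °C replicate 2. The labels do not describe the lesion of ino80-5, so the reads do not show which part of the gene is transcribed. The labelled tissue was checked with markers. The 4 green tissue markers summed to 68435 to 71471 TPM at 21 °C and 65860 to 70016 at 27 °C, with no member called. Of 6 root markers IRT1 and PYK10 fell, and the list summed to 2179 to 2287 and 1865 to 1961 TPM. The 5 seed markers, none of them called, summed to 69.6 to 80.9 and 84.9 to 89.7 TPM, and of the floral markers AP1, AP3 and AG were too low to test. The floral marker PI, which was tested, fell from 2.13, 2.39 and 1.73 to 1.27, 1.303 and 1.3002 TPM (-0.42 ± 0.13, adjusted p = 0.021), a call lost under 4 alternatives, among them leaving out ino80 21 °C replicate 1 or 2 or ino80 27 °C replicate 1. In whole seedlings, fewer cells of a type and less RNA per cell cannot be told apart. The library kit is given without strand or poly(A) use, so genes that overlap another by at least 200 bp are uncertain. Those named below or in a figure are HSP17.4, HSFB2B, APR2, GASA6, AT1G04770, AT5G24080, AT5G12110, PIE1, BES1 and ARR6. Members of the small heat shock protein, HSP70 and LSU families have near-identical copies, which makes single members uncertain too.

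An hour at 27 °C changed 6141 genes in ino80, 32% of those tested. Of these 2917 rose (15.2%) and 3224 fell (16.8%), and the groups did not overlap for 46.2% of tested genes. Most changes were small. The median size was 0.40 among rising and 0.39 among falling genes on the log2 scale, and 64.8% and 67.9% of them changed by less than 0.5. At least 2-fold changes were called for 413 genes (2.15%), of which 253 rose (1.32%) and 160 fell (0.834%). Among them 32 rose and 11 fell by at least 2 log2 units. These counts depend on the added value, with 380 rising and 280 falling at 0.1 and 122 and 88 at 5. Calls were more frequent among abundant transcripts, at 18.6% below a mean of 5 TPM and 52.2% at 100 TPM or more.

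**Figure D1:**
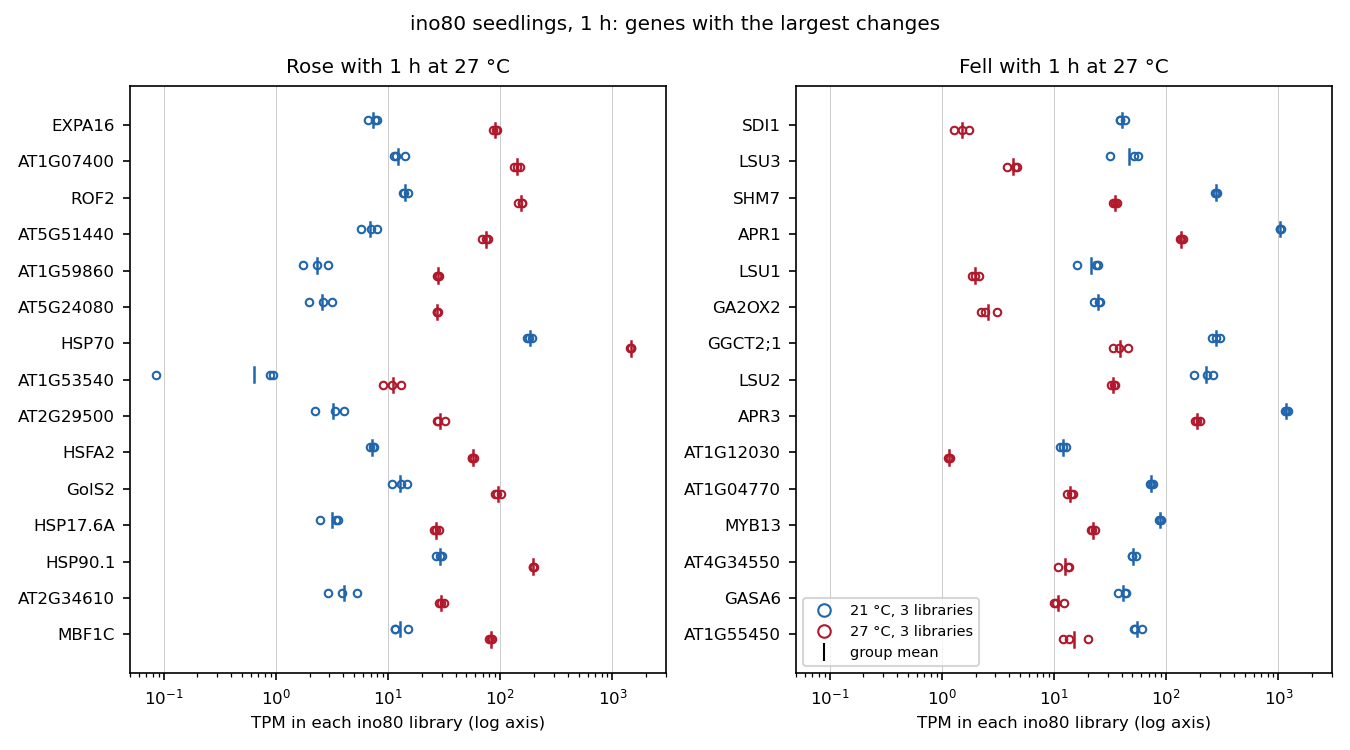
TPM on a log axis in each ino80 library for the 15 genes that rose and the 15 that fell most among called genes of at least 5 mean TPM whose groups did not overlap. Blue points are the 3 libraries at 21 °C, red points the 3 at 27 °C and ticks the group means. EXPA16, ROF2 and small heat shock proteins lead the rising genes, and SDI1, LSU3 and SHM7 the falling ones.

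Groups that do not overlap were a condition of the rule that chose these genes. For them the absence of overlap given below describes the libraries and supports no change. Most list members named below were chosen for a large test statistic, which favours separate groups, and 46.2% of all tested genes had no overlap. For list members, too, the absence of overlap only describes the libraries. The counts of list members at 1 h in ino80 stand beside 15.2% of all tested genes rising and 16.8% falling.

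Chaperones that hold and refold proteins were the group that rose most. Small heat shock proteins, which keep unfolding proteins from clumping, had 12 of 14 tested members rising and none falling, with a median change of 2.39 against 0.00 over all genes. Together the 16 members of the list went from 84.6 ± 5.24 to 470 ± 21.5 TPM (SD, n = 3). HSP21 and HSP22.0 were too low to test, and the members not called changed by 0.14 to 0.38. AT1G07400, annotated as an HSP20-like chaperone, read 11.3, 11.7 and 14.1 TPM at 21 °C and 149, 141 and 133 at 27 °C, 11.38-fold more on average (3.41 ± 0.09, adjusted p = 6.6e-13). Every warm library lay above every control, as the rule for the genes of largest change required. AT1G53540, of the same family, began near the limit of detection, at 0.893, 0.0846 and 0.943 TPM, and read 10.9, 8.99 and 13.1 at 27 °C (2.90 ± 0.25, adjusted p = 2.1e-07). HSP17.6A rose from 3.47, 3.54 and 2.46 to 28.3, 26.8 and 25.6 TPM (2.76 ± 0.20). The groups of both genes stood apart.

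Among the large ATP-driven chaperones and the chaperonins, 21 of 24 rose and none fell, with a median of 0.73, and 1 fell without Col 21 °C replicate 2. HSP70 (AT3G12580), a cytosolic foldase, read 175, 190.3 and 182 TPM at 21 °C and 1474, 1429.7 and 1454 at 27 °C, a change of 2.99 ± 0.06, adjusted p = 1.6e-13. Its warm libraries were close to each other and 7.97-fold above the controls. HSP101, the disaggregase needed for acquired heat tolerance, read 14.4, 13.8 and 14.4 and 57.3, 60.5 and 61.8 TPM (2.001 ± 0.06, adjusted p = 2e-12). HSP90.1, the heat-inducible cytosolic HSP90, read 26.8, 30.3 and 29.3 and 196, 198 and 197 TPM (2.73 ± 0.08). The constitutive HSP90.2 was more abundant at 21 °C, at 486 ± 9.43 TPM (SD, n = 3), and changed by 0.84 ± 0.05. These 4 genes had no overlap between the temperatures.

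Of 15 tested co-chaperones and related heat response genes, 12 rose and none fell, with a median of 0.80. ROF2, a peptidyl-prolyl isomerase that binds HSP90, read 13.6, 15.1 and 13.9 TPM and then 155, 145 and 158 (3.34 ± 0.08, adjusted p = 2.7e-13). MBF1C, a coactivator required for basal heat tolerance, read 11.5, 11.6 and 15.1 and 79.5, 82.3 and 84.5 TPM (2.60 ± 0.10). HOP3, which links HSP70 to HSP90, changed by 2.51 ± 0.07 and the co-chaperone FES1A by 0.87 ± 0.06. GolS2, which makes galactinol for the raffinose sugars that build up in stress, was not on a list and read 12.9, 14.6 and 10.9 and 94.4, 102 and 89.5 TPM (2.81 ± 0.11, adjusted p = 3.8e-11). All 5 genes were higher in every warm library than in any control.

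Heat shock transcription factors split by member, with 8 of 18 rising, 2 falling and a median of 0.21. HSFA2, which keeps the heat response going, read 7.46, 6.89 and 7.27 TPM at 21 °C and 58.1, 56.2 and 56.1 at 27 °C (2.82 ± 0.08, adjusted p = 8.7e-13). HSFA7A read 6.33, 5.63 and 4.93 and 22.8, 17.3 and 20.7 TPM (1.68 ± 0.11, adjusted p = 6.5e-09). The class B members HSFB2A (1.09 ± 0.11) and HSFB2B (1.12 ± 0.09), which lack an activation domain and can repress, rose as well. HSFA1E, one of the master activators present without heat, fell from 6.38, 6.98 and 6.73 to 4.05, 4.08 and 4.35 TPM (-0.58 ± 0.10, adjusted p = 0.00038). No group overlapped for these 5 factors. The count of falling factors was 1 without ino80 27 °C replicate 1 or 2.

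The promoters of 3 of these rising genes show where heat shock elements lie. They are the 250 bases before the annotated start in the RefSeq annotation of TAIR10.1, printed 5′ to 3′ on the gene's strand with heat shock elements in capitals. The element searched for has 3 alternating units, GAA and TTC, with 2 free bases between units. HSFA2 lies at chr2:11135374-11135623 on the plus strand with 1 match ending 76 bases before the start. HSFA7A lies at chr3:19264891-19265140, plus strand, with 2 matches ending 180 and 130 bases before it. AT1G53540 lies at chr1:19980049-19980298, plus strand, with 1 match ending 41 bases before it.
HSFA2: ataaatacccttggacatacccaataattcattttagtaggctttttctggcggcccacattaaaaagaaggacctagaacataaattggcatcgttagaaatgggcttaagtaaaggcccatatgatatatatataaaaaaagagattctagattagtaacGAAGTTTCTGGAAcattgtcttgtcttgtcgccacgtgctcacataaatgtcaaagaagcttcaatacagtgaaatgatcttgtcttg
HSFA7A: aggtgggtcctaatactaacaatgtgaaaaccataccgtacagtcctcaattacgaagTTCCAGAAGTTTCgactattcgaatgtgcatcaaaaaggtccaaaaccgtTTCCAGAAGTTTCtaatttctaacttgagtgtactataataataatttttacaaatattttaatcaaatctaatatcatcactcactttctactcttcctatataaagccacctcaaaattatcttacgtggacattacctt
AT1G53540: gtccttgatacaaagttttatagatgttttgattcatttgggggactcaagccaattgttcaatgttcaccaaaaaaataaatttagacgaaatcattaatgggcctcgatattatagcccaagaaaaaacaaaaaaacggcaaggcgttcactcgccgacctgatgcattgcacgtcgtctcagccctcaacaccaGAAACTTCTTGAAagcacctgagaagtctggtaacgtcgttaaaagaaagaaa
Only 106 of 27437 promoters of protein-coding nuclear genes (0.386%) held such a match on either strand. Among the lists it was held by 3 of 21 heat shock factors (HSFA2, HSFA7A and HSFA7B) and 2 of 16 small heat shock proteins (HSP17.4 and AT1G53540). It was also in 2 of 17 co-chaperones and heat response genes (GOLS1 and DREB2A). Outside the heat lists it was in 1 of 16 morning and day clock genes (PRR7, not called) and 1 of 23 early touch and wound genes (ERF2, which fell). None of the 24 large chaperones held it. The shorter core GAANNTTC or TTCNNGAA, which each such match contains, was in 16.2% of all promoters. It was in 43.8% of small heat shock protein promoters, 41.2% of those of co-chaperones and 4.17% of those of the large chaperones. A match describes letters in this window and not a bound site.

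The folding machinery of the endoplasmic reticulum moved less. Of 22 members 12 rose and none fell, with a median of 0.19. ERDJ3A, a J-domain co-chaperone, had the largest change, from 7.10, 6.51 and 5.92 to 16.8, 16.6 and 18.5 TPM (1.28 ± 0.09, adjusted p = 1.3e-08). The chaperone BIP2 (0.42 ± 0.08) and BZIP28 (0.41 ± 0.06), a membrane-tethered factor released in folding stress, rose by under 0.5. The groups did not overlap for these 3 genes. Serine/arginine-rich splicing factors had 5 of 20 rising and 2 falling, with a median of 0.12. Over all tested genes 15.2% rose and 16.8% fell. Leaving out any library made the count of falling factors 1, except Col 21 °C replicates 1 and 2 and ino80 27 °C replicate 1. SR45A read 25.6, 30.5 and 31.0 TPM at 21 °C and 76.3, 68.8 and 74.0 at 27 °C (1.305 ± 0.07, adjusted p = 8.5e-10). SR30, whose own transcript is spliced according to light and stress, changed by 1.102 ± 0.09, and RS40 by -0.52 ± 0.07. All 3 had separate groups.

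Genes of sulfate assimilation and the low-sulfur response held most of the largest falls. Plants reduce sulfate through APS reductases (APR) to build cysteine, methionine and glutathione, and the LSU and SDI genes are induced when sulfur is short. Of 32 tested members 19 fell and 2 rose, with a median of -0.38 and 11 falls of at least 2-fold, and 9 of the 15 most reduced named genes were members. The list as a whole went from 6685 ± 106 to 2652 ± 31.1 TPM (SD, n = 3), or from 0.669% to 0.265% of all TPM. SDI1, which represses glucosinolate synthesis, read 38.7, 38.3 and 43.3 TPM at 21 °C and 1.29, 1.52 and 1.76 at 27 °C, 26.3-fold less (-4.03 ± 0.12, adjusted p = 1.6e-12). No other gene of the rule for largest changes fell as far. The APS reductase APR1 read 1025, 1039 and 1048 and 132, 136 and 141 TPM (-2.92 ± 0.08, adjusted p = 6.6e-13). APR3 read 1135, 1172 and 1216 and 179, 189 and 199.9 TPM (-2.63 ± 0.07). APR2, the most abundant of the family, read 1800.4, 1903 and 1845 and 626, 633 and 680.1 TPM (-1.52 ± 0.06). Within each temperature the replicates of the 3 reductases lay within a narrow band, and the bands were far apart.

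The LSU genes were more scattered at 21 °C. LSU2 read 231, 178 and 263 TPM there and 34.2, 32.0 and 34.7 at 27 °C (-2.68 ± 0.13, adjusted p = 4.5e-10), and LSU3 read 51.2, 31.5 and 56.5 and 4.45, 3.83 and 4.71 (-3.11 ± 0.21, adjusted p = 1.4e-08). LSU1 read 24.4, 15.9 and 23.8 and 1.98, 2.14 and 1.85 TPM (-2.88 ± 0.15, adjusted p = 9.3e-10). In all 3 genes ino80 21 °C replicate 2 was the lowest control and still lay above every warm library. GGCT2;1, which breaks down glutathione in the cytosol, read 277, 255 and 304 and 37.8, 33.7 and 45.3 TPM (-2.82 ± 0.14). SHM7, a serine hydroxymethyltransferase family gene, read 279, 274 and 282 and 36.1, 34.6 and 33.3 (-2.97 ± 0.08, adjusted p = 4.1e-13), and AT1G04770 changed by -2.32 ± 0.09. The letters GAGAC, the core of the sulfur-responsive element, were in 18.18% of the list's promoters and 25.8% of all promoters. Of the 6 members with these letters 5 fell and none rose, where 19 of all 32 tested members fell.

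Growth genes moved in both directions. EXPA16, an expansin that loosens cell walls, had the largest rise of the named genes, from 6.61, 7.58 and 8.002 to 91.6, 94.4 and 85.7 TPM (3.45 ± 0.09, adjusted p = 4.1e-13). Over all 31 tested expansin and xyloglucan genes 10 rose and 13 fell, with a median of 0.02. EXPA1 read 122, 130.0 and 122 and 59.2, 58.7 and 57.4 TPM (-1.08 ± 0.05, adjusted p = 1.9e-10), and the xyloglucan endotransglucosylase XTH24 read 600.0, 584 and 576 and 239.5, 234 and 264 (-1.25 ± 0.06). These 3 wall genes had no overlap between temperatures and 2 of them fell.

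The gibberellin list pointed both ways within the pathway, with 3 of 19 rising and 10 falling. GA2OX2, which inactivates gibberellin, read 25.3, 22.6 and 25.5 TPM at 21 °C and 2.41, 2.24 and 3.12 at 27 °C (-2.83 ± 0.11, adjusted p = 3e-11). GA2OX1, of the same function, read 14.6, 16.5 and 14.2 and 6.38, 4.48 and 4.13 TPM (-1.44 ± 0.13). GA3OX1, which makes the active hormone, rose from 5.44, 6.63 and 6.28 to 25.04, 23.4 and 26.2 TPM (1.87 ± 0.11, adjusted p = 2.3e-09). Its relative GA3OX2 (-0.78 ± 0.08) and the receptor gene GID1B (-0.90 ± 0.08) fell. No groups overlapped for the 5 genes. The gibberellin-regulated GASA6 fell from 42.6, 36.8 and 43.8 to 10.4, 12.2 and 9.95 TPM (-1.83 ± 0.10), again without overlap.

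Auxin genes had 7 of 28 rising and 9 falling, with a median of -0.11, where 15.2% of all tested genes rose and 16.8% fell. Leaving out ino80 21 °C replicate 1 made the rising count 3, and leaving out ino80 27 °C replicate 2 made it 4. PIN3, an auxin efflux carrier, read 56.9, 62.8 and 60.3 TPM at 21 °C and 37.5, 37.4 and 36.2 at 27 °C (-0.68 ± 0.06, adjusted p = 7.1e-07). Its relative PIN7 changed by 0.41 ± 0.06, the repressor IAA14 by -0.82 ± 0.08 and GH3.5, which conjugates auxin, by 0.63 ± 0.08. The genes PIF4, PIF5 and YUC8 were chosen after their values were seen, for their known part in growth in warmth. PIF5 read 77.8, 82.7 and 75.6 and 112, 115 and 119.8 TPM (0.55 ± 0.06, adjusted p = 1.9e-06). YUC8, an auxin synthesis gene downstream of PIF4, read 6.22, 5.49 and 6.31 and 4.83, 5.20 and 4.16 TPM (-0.29 ± 0.10, adjusted p = 0.04). That call did not hold under 8 of 20 alternatives, among them leaving out Col 27 °C replicate 1 or 2, ino80 21 °C replicate 1 or 3 or ino80 27 °C replicate 1 or 3, with adjusted p up to 0.166. PIF4 itself changed by 0.75 ± 0.10.

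Of 12 brassinosteroid genes 1 rose, the transcription factor BES1 (0.65 ± 0.06), and 4 fell, or 2 without ino80 21 °C replicate 2. The rising count was 2 without Col 21 °C replicate 1 or 2 or ino80 21 °C replicate 2. The median of the list was -0.13, and over all tested genes 15.2% rose and 16.8% fell. Of 12 cytokinin genes 5 rose and none fell, led by ARR5, a type A response regulator, which read 8.23, 9.06 and 8.38 and 14.9, 17.2 and 15.5 TPM (0.82 ± 0.09, adjusted p = 5.3e-06). Of 15 ethylene genes 9 fell and 1 rose. The receptors ERS1 (-0.41 ± 0.07) and ERS2 (-0.52 ± 0.10) and the signalling protein EIN2 (-0.33 ± 0.07) were among those that fell, and the ACC synthase ACS6 rose (0.38 ± 0.08).

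**Figure D2:**
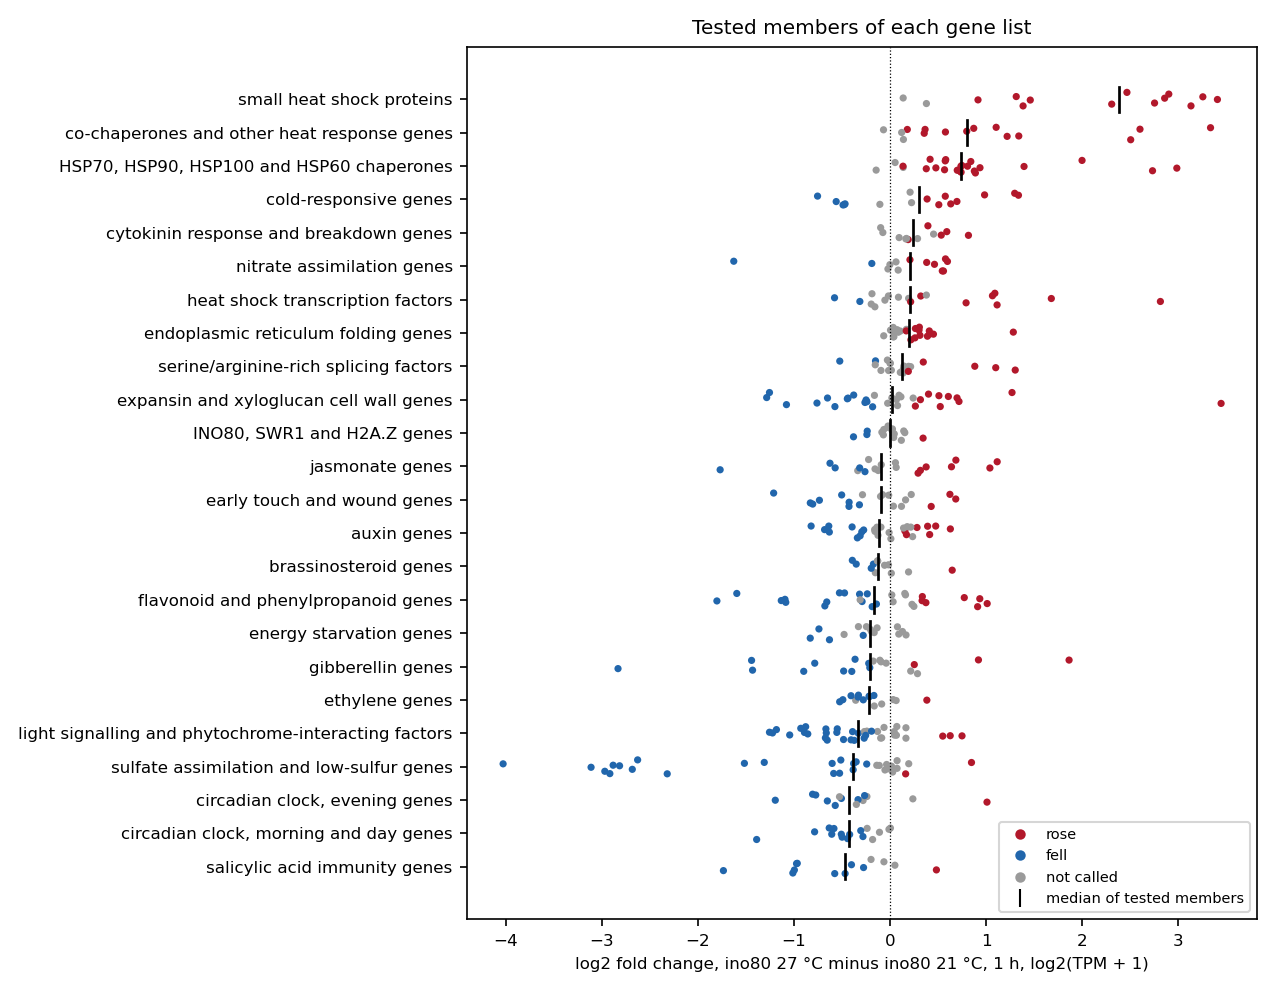
Change after 1 h at 27 °C in ino80, as log2 fold change, for each tested member of 24 gene lists sorted by their median. Red points rose, blue points fell, grey points were not called and black lines are medians. Small heat shock proteins have the highest median, 2.39, and the lowest is -0.47, of the salicylic acid list.

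More clock genes fell than rose in both of their groups. The clock is a loop in which dawn factors such as LHY, day-phased PRR proteins and evening genes repress one another in turn. Of 16 morning and day genes 11 fell and none rose, with a median of -0.43. LHY read 357, 388 and 351 TPM at 21 °C and 203, 212 and 220.2 at 27 °C (-0.78 ± 0.05, adjusted p = 5.4e-09). PRR5 read 6.70, 6.604 and 5.5996 and 2.20, 1.65 and 1.54 TPM (-1.39 ± 0.12, adjusted p = 3.8e-07). PRR9 read 107, 128 and 111 and 73.8, 76.0 and 75.7 TPM (-0.61 ± 0.07, adjusted p = 7.4e-06). The temperatures did not overlap in these 3 genes. Of 14 evening genes 8 fell and 1 rose. GI, which times flowering and stabilises the photoreceptor ZTL, read 104, 110.3 and 99.98 and 43.5, 47.1 and 45.2 TPM (-1.19 ± 0.06, adjusted p = 2.6e-10). ELF3, a subunit of the evening complex with a known part in temperature sensing, read 9.96, 11.5 and 10.1 and 5.999, 5.82 and 5.43 TPM (-0.77 ± 0.08, adjusted p = 3.5e-06). The gene that rose was CHE, a repressor of the dawn gene CCA1, which read 25.1, 23.4 and 25.4 and 48.9, 51.8 and 51.0 TPM (1.01 ± 0.06, adjusted p = 7.5e-09). The groups of GI, ELF3 and CHE stood apart. The labels give no time of day.

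The promoters of PRR9 and PRR5 are shown for the letters CACGTG (G-box) and AAATATCT (evening element, printed as its reverse complement where it lies on the other strand), in capitals. PRR9 lies at chr2:19232357-19232606 on the plus strand of TAIR10.1 with 2 G-boxes, ending 239 and 167 bases before the start. PRR5 lies at chr5:8358547-8358796 on the minus strand with 1 evening element ending 180 bases before it.
PRR9: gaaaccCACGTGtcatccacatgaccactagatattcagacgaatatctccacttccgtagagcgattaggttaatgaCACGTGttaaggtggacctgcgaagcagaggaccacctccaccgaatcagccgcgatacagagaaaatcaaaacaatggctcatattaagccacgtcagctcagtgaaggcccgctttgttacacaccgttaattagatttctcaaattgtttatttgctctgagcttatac
PRR5: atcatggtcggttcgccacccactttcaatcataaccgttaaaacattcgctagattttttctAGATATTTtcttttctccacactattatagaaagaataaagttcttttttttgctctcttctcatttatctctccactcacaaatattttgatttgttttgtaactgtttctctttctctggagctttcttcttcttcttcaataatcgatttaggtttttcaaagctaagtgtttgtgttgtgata
The G-box was in 8 of 16 promoters of morning and day genes, against 6.49% of all promoters. Of those 8 genes 5 fell, where 11 of all 16 in the list did, so falls were not more frequent with the G-box. The evening element was in 7 of 17 promoters of evening genes, against 4.79% of all promoters. Of the 5 of these that were tested, 1 fell.

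Of 37 genes of light signalling, 22 fell and 3 rose, with a median of -0.33. HYH, a bZIP factor of light-grown development, read 325, 297 and 336 TPM at 21 °C and 133, 131 and 135 at 27 °C (-1.25 ± 0.06, adjusted p = 2.4e-10). RUP1 read 38.5, 39.5 and 37.3 and 15.9, 16.4 and 15.38 TPM (-1.22 ± 0.07). RUP2, which like RUP1 switches off the UV-B receptor, read 162, 155 and 163 and 63.6, 72.1 and 74.3 TPM (-1.18 ± 0.06). The B-box genes BBX18 (-0.93 ± 0.05) and BBX25 (-0.89 ± 0.07) and SPA3 (-0.86 ± 0.07), part of a light-regulated ubiquitin ligase, fell too. All 6 genes were lower in every warm library.

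Phenylpropanoid and flavonoid genes had 14 of 28 falling and 7 rising, with a median of -0.16. PAL2, the entry enzyme of the pathway, read 1178, 1226 and 1155 and 386, 398 and 392 TPM (-1.59 ± 0.04, adjusted p = 3.1e-13). MYB111, an activator of flavonol synthesis, read 11.9, 13.5 and 12.9 and 2.83, 3.11 and 2.89 TPM (-1.80 ± 0.09, adjusted p = 5.3e-10). LDOX, late in anthocyanin synthesis, rose from 42.3, 42.3 and 42.5 to 91.5, 79.0 and 89.3 TPM (1.01 ± 0.07, adjusted p = 2.6e-08). PAL2 and MYB111 thus fell and LDOX rose, each with separate groups.

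Of 13 tested immunity genes of the salicylic acid pathway 9 fell and 1 rose, with a median of -0.47. A further 7 members, PR1 among them, were too low to test. CBP60G, an activator of salicylic acid synthesis, read 9.09, 4.89 and 8.62 TPM at 21 °C and 1.35, 1.96 and 1.23 at 27 °C (-1.73 ± 0.18, adjusted p = 2e-06). The immune receptor SNC1 read 81.0, 89.1 and 76.8 and 38.5, 42.2 and 43.5 TPM (-0.97 ± 0.07, adjusted p = 1.4e-08). PAD4, which acts with EDS1 upstream of salicylic acid, changed by -0.995 ± 0.10. The 3 genes had separate groups. Among 19 early touch and wound genes 8 fell and 3 rose, and the falling count was 5 when ino80 21 °C replicate 3 was left out and 4 when ino80 27 °C replicate 3 was. The kinase gene MPK3 read 64.5, 55.8 and 70.0 and 28.0, 25.6 and 26.53 TPM (-1.21 ± 0.08, adjusted p = 1.3e-08), and ERF4 rose (0.62 ± 0.05).

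Jasmonate genes were divided, with 7 of 19 rising and 5 falling. JAZ9, a repressor of jasmonate responses, read 129.8, 138 and 139 TPM at 21 °C and 39.4, 38.0 and 39.7 at 27 °C (-1.77 ± 0.07, adjusted p = 3.8e-11). LOX2, which starts jasmonate synthesis in leaves, read 42.1, 43.5 and 38.6 and 83.4, 84.6 and 90.602 TPM (1.04 ± 0.06, adjusted p = 1.5e-09). Both had separate groups. LOX4, of the same family as LOX2, fell, and the median of the list was -0.09. Of 16 cold-responsive genes, 8 rose and 5 fell. The dehydrin ERD10 read 649, 638 and 647 and 1561, 1724 and 1488 TPM (1.299 ± 0.08, adjusted p = 5.4e-09). KIN1 read 78.5, 45.5 and 81.8 and 168, 177 and 163 TPM (1.34 ± 0.16), and the light stress gene ELIP1 fell (-0.75 ± 0.06).

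Of 13 nitrogen genes 7 rose, by small steps, and 2 fell. The falling count was 1 without Col 21 °C replicate 3, any Col 27 °C library, ino80 21 °C replicate 1 or 2 or any ino80 27 °C library. The nitrite reductase NIR1 read 287, 317 and 277 and 416, 427 and 442 TPM (0.55 ± 0.06, adjusted p = 2.5e-06). The asparagine synthetase ASN1, which is induced in darkness, fell from 39.9, 41.0 and 40.8 to 11.6, 11.7 and 14.3 TPM (-1.63 ± 0.11, adjusted p = 1.6e-08). Both had separate groups. Of 15 energy starvation genes 4 fell and none rose, with a median of -0.20. Of 16 genes of the INO80 and SWR1 complexes and H2A.Z, NRP1 rose (0.35 ± 0.07) and INO80, SWC2 and PIE1 (-0.38 ± 0.09) fell. That count of falling genes was 1 without ino80 21 °C replicate 2 or any ino80 27 °C library. Over all tested genes 15.2% rose and 16.8% fell, and the median of this list was 0.00, so its counts do not set it apart.

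Col changed 6570 genes (34.2%) in the same hour, 245 rising (1.28%) and 236 falling (1.23%) at least 2-fold. Of the 253 genes that rose at least 2-fold in ino80, 239 (94.5%) rose in Col, which is 7.93% of the 3013 that rose there (15.7% of tested genes). Of the 160 that fell at least 2-fold, 154 (96.2%) fell in Col, 4.33% of its 3557 falling genes (18.5%). With the 2-fold limit in both genotypes 158 rising genes were shared, 62.5% of the list of ino80 and 64.5% of that of Col. Likewise 118 falling genes were shared, 73.8% and 50% of the lists. A difference of the responses, tested as the interaction of genotype and temperature, was called for 361 genes (1.88%). The change was higher in ino80 for 209 of them (1.09%) and lower for 152 (0.792%), but without Col 21 °C replicate 2, the shallowest library of the table, the split was 214 higher and 225 lower. The number depends on single libraries, with 199 genes without Col 21 °C replicate 3, 186 and 214 without Col 27 °C replicates 2 and 3, and 196 and 215 without ino80 27 °C replicates 1 and 2. Of the 361 genes, 152 changed in the same direction in both genotypes, by more in ino80 for 66 and by less for 86. A further 78 were called in ino80 alone, 93 in Col alone and 38 in opposite directions. Small heat shock proteins had a median of 2.39 in both genotypes. Of 24 large chaperones 23 rose in Col, with a median of 0.97 against 0.73 in ino80. Their 3 called differences were lower in ino80 but numbered 0 to 11 without 1 library. Of 22 endoplasmic reticulum folding genes 17 rose in Col, with a median of 0.35 against 0.19. Their 1 called difference was lower in ino80, with 0 to 6 without 1 library.

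In 4 of 32 sulfur genes the change was lower in ino80 than in Col. SDI1 in Col read 15.5, 18.19 and 16.6 TPM at 21 °C and 1.97, 2.48 and 1.39 at 27 °C, a change of -2.61 ± 0.12 against -4.03 ± 0.12 in ino80. The difference of the changes was -1.42 ± 0.17, adjusted p = 0.00053. At 21 °C every ino80 library was above every Col library, and at 27 °C the ranges of the genotypes overlapped. LSU1 in Col read 8.08, 5.43 and 6.503 and 2.20, 1.96 and 1.74 TPM, and its change differed by -1.52 ± 0.21, adjusted p = 0.0013. SHM7 in Col read 137, 178 and 162 and 32.1, 28.6 and 29.0 TPM, with a difference of -0.61 ± 0.11, adjusted p = 0.008. The 4 called differences in the list were all negative. Outside the lists, AT1G12030, annotated as a putative phosphoenolpyruvate carboxylase, read 11.99, 11.2 and 12.8 and 1.15, 1.19 and 1.14 TPM in ino80. In Col it read 1.13, 0.631 and 1.01 and 0.733, 1.05 and 0.546 TPM, with the ino80 libraries at 21 °C above all 9 others (difference -2.47 ± 0.19, adjusted p = 2e-05).

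Early touch and wound genes showed the opposite order. In Col 13 of 19 fell and 1 rose, with a median of -0.62 against -0.10 in ino80, and the difference was called for 7 members, all higher in ino80. WRKY40, a repressor of early defence genes, read 12.2, 8.82 and 8.62 TPM in Col at 21 °C and 3.05, 2.23 and 2.22 at 27 °C (-1.63 ± 0.14). In ino80 it read 1.16, 0.983 and 1.07 and 1.004, 1.14 and 0.766 TPM, already low and with overlapping groups, and the difference was 1.55 ± 0.20, adjusted p = 0.00071. The touch-induced XTH22, counted in the expansin and xyloglucan list and not in this one, read 14.8, 12.8 and 16.7 and 38.2, 40.0 and 32.8 TPM in ino80. In Col it read 29.0, 29.0 and 26.54 and 38.3, 37.3 and 38.7 (difference 0.85 ± 0.12, adjusted p = 0.0018). ACS6, counted in the ethylene list, rose in ino80 (0.38 ± 0.08) and fell in Col (-0.47 ± 0.08), a difference of 0.86 ± 0.12, adjusted p = 0.001.

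Some nitrate assimilation genes rose by less in ino80. Of 13 genes 9 rose and 1 fell in Col, with a median of 0.40 against 0.21, and 5 differences were called, all lower in ino80. The nitrate reductase NIA1 read 95.2, 74.8 and 92.2 TPM in Col at 21 °C and 239, 261 and 234 at 27 °C (1.48 ± 0.07). In ino80 it read 136, 151 and 139 and 163, 165 and 165 TPM (0.21 ± 0.07, adjusted p = 0.043), with no overlap but in a narrow range, and the difference was -1.27 ± 0.11, adjusted p = 2.1e-05. The small rise in ino80 was not called under 10 alternatives, with adjusted p of up to 0.14. Among them were leaving out Col 27 °C replicate 1 or 3, ino80 21 °C replicate 1 or 3 or any ino80 27 °C library. NIR1 (-0.48 ± 0.08, adjusted p = 0.0061) and ASN2 (-0.59 ± 0.08, adjusted p = 0.0013) differed the same way. Among phenylpropanoid genes all 8 called differences were negative. There were 4 without Col 27 °C replicate 1, ino80 21 °C replicate 1 or 3 or ino80 27 °C replicate 2, and 5 without Col 21 °C replicate 3, Col 27 °C replicate 2 or ino80 27 °C replicate 1. PAL2 fell by more in ino80, with 1180.2, 1183 and 1209 and 558, 546 and 568 TPM in Col and a difference of -0.50 ± 0.05, adjusted p = 0.00021. The differences of 4CL1 (-0.55 ± 0.07, adjusted p = 0.0008) and PAL1 (-0.37 ± 0.06, adjusted p = 0.0033), both early steps, had the same sign. LOX2 rose by less in ino80 than in Col (-0.72 ± 0.08, adjusted p = 0.00021). Of clock and transport genes, CHE (0.51 ± 0.09, adjusted p = 0.008) rose by more in ino80. The changes of CDF1 (-0.51 ± 0.09, adjusted p = 0.0085) and PIN3 (-0.52 ± 0.09, adjusted p = 0.008) were lower in ino80 than in Col.

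**Figure D3:**
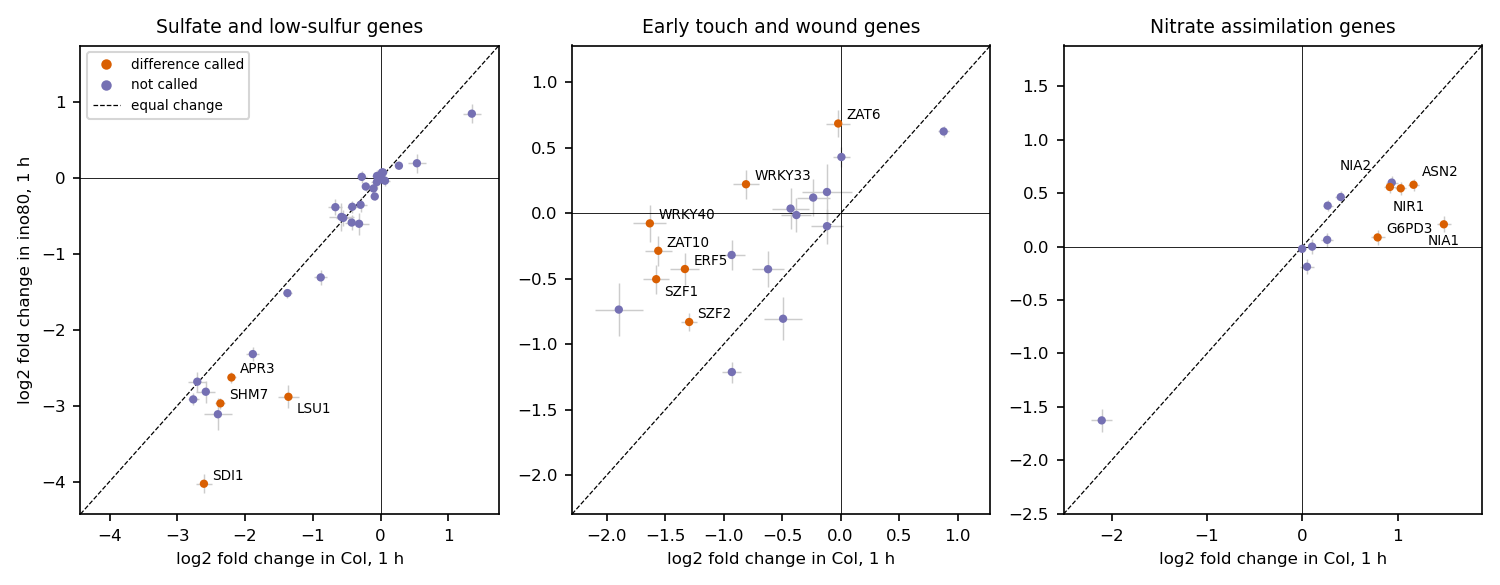
Change after 1 h at 27 °C in Col (horizontal) and ino80 (vertical), as log2 fold change ± SE, for tested sulfur, touch and wound, and nitrate genes. Orange points have a called difference between the genotypes and the dashed line marks equal change. Called sulfur and nitrate genes lie below the line and called touch and wound genes above it.

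Genes with chloroplast genome identifiers made up 16 of the 48 with a called difference of at least 1 log2 unit toward higher in ino80 (0.25% of tested genes). The reference gene table gives no names for them. Of 72 tested, 34 rose and none fell in ino80, with a median of 0.59, and 24 fell and none rose in Col, with a median of -0.36. The first count was 19 without ino80 27 °C replicate 1, and the second was 13 without Col 21 °C replicate 2 or Col 27 °C replicate 3. The difference was called for 17, all higher in ino80, with a median of 0.87 over the 72. Together they held 0.191%, 0.145% and 0.147% of TPM in the ino80 libraries at 21 °C and 0.257%, 0.244% and 0.208% at 27 °C. In Col they held 0.105%, 0.156% and 0.121% at 21 °C and 0.101%, 0.0857% and 0.0799% at 27 °C. The ino80 groups did not overlap, and Col 21 °C replicate 2, the shallowest library of the table at an estimated 12.9 M fragments, was the highest of Col. How the library preparation treats organelle RNA is not stated, and its part in this result was not tested. ATCG00020 read 91.0, 75.4 and 67.5 and 132, 148 and 119 TPM in ino80. In Col it read 48.8, 80.4 and 73.5 and 38.0, 32.3 and 33.2 (difference 1.69 ± 0.21, adjusted p = 0.00055). ATCG00490 showed the same order (1.52 ± 0.20, adjusted p = 0.00071).

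After 12 h at 27 °C, 11241 genes were called in ino80 (57.4%), with 7458 higher (38.1% of 19578 tested) and 3783 lower (19.3%). The median change of all genes was 0.15, and the split was 5242 higher and 5424 lower after median-of-ratios scaling and 5359 and 5390 after quantile normalization. Each time was fitted alone, the tables having been scaled apart. Of the 231 genes that rose at least 2-fold at 1 h and were tested at 12 h, 119 were higher (51.5%) and 25 lower (10.8%) at 12 h, with a median of 0.46. Of 150 that had fallen, 63 were lower (42%) and 45 higher (30%), with a median of -0.08. After median-of-ratios scaling these counts were 92 and 36 for the first list and 70 and 31 for the second. Heat response genes were divided at 12 h. Of 11 tested small heat shock proteins 8 were higher and 2 lower, or 7 and 2 after median-of-ratios scaling. The lower count was 1 without the 12 h library Col 21 °C replicate 3, ino80 21 °C replicate 2 or 3 or any ino80 27 °C replicate. HSP70 was 13.1 ± 2.57 TPM (SD, n = 3) at 21 °C and 56.9 ± 10.2 at 27 °C (2.04 ± 0.15), and MBF1C changed by 1.93 ± 0.09. Of the 24 large chaperones 5 were higher and 17 lower, among the latter HSP90.2 (-0.65 ± 0.07). EXPA16 was 225 ± 8.16 and 223 ± 7.73 TPM (-0.01 ± 0.09, adjusted p = 0.91), abundant at both temperatures.

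Of 31 tested sulfur genes 13 were higher (41.9%) and 6 lower (19.4%) at 12 h, against 38.1% and 19.3% of all tested genes, or 10 and 8 after median-of-ratios scaling, with LSU1 at 2.45 ± 0.23 and LSU3 at 2.40 ± 0.22. Of 17 evening clock genes tested at 12 h, 16 were higher and none lower, GI by 1.03 ± 0.14. XTH24 changed by 2.58 ± 0.09 and GA3OX1 by -1.84 ± 0.16. Of 15 energy starvation genes 14 were higher and none lower, with a median of 1.44, and ASN1 had the largest rise of the named genes, from 8.06 ± 1.38 to 311 ± 38.9 TPM (5.11 ± 0.19). Of 13 nitrate genes 11 were lower and 1 higher, and of 26 tested flavonoid genes 22 were lower and 1 higher, LDOX among those lower (-3.21 ± 0.27). Of 12 cytokinin genes 8 were lower and none higher, where 1 was higher without ino80 27 °C replicate 1. Of 20 splicing factors 14 were higher and 1 lower, or 14 and 4 after median-of-ratios scaling, SCL33 higher by 1.84 ± 0.09. Without 1 library, 0 to 2 splicing factors were lower.

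**Figure D4:**
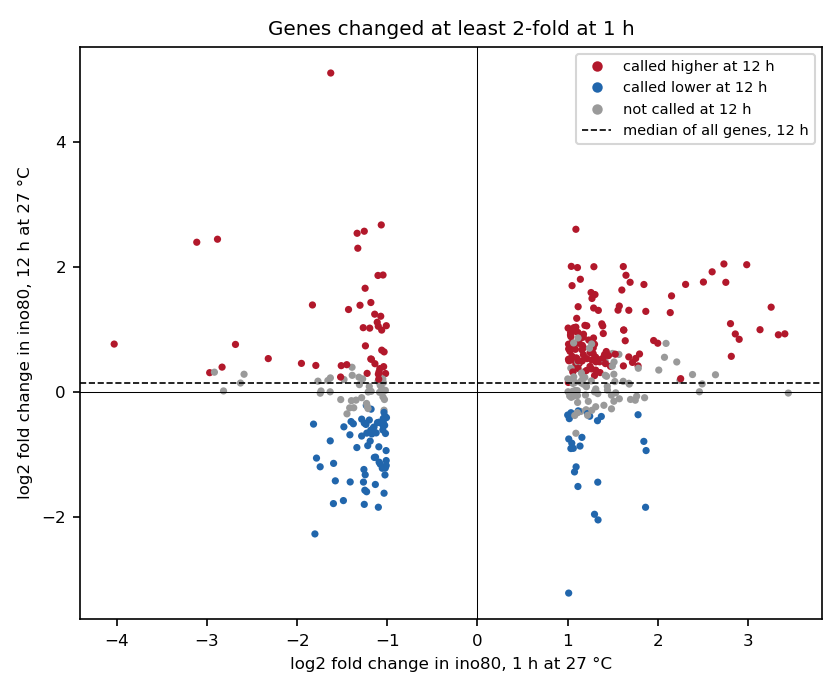
Change at 12 h (vertical) against change at 1 h (horizontal) in ino80, as log2 fold change, for the genes changed at least 2-fold at 1 h and tested at 12 h. The dashed line is the median of all genes at 12 h, 0.15. Of the rising genes 119 were higher at 12 h, and 45 of the falling genes were higher there.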

How the data were processed

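RNA of whole seedlings was prepared with a Takara kit and an NEBNext Ultra RNA kit, per the labels' protocols. The authors deposited TPM values, 1 table for each time, with 1 column per library and no coordinates. The genome build TAIR10 is named in the submitters' processing notes, together with HISAT2 2.1.10, fastp 0.20.1, DESeq2 1.26.0 and HTSeq 0.11.2, none with its role. Gene lengths, strand setting and the choice of genes are not given in the sources used here. TPM is relative to the whole pool, so a large change of abundant transcripts shifts all others.

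Genes with at least 1 TPM in at least 3 of 12 libraries were fitted with limma 3.58.1 in R 4.3.3 on log2(TPM + 1), with 4 group means and a trended empirical Bayes prior. Contrasts were warmth in ino80, warmth in Col and their difference, two-sided, with Benjamini-Hochberg adjustment over 19190 genes (1 h) or 19578 genes (12 h). Named genes are INO80, the 15 rising and 15 falling genes with the largest called changes (mean of at least 5 TPM, groups not overlapping), 6 members of each list with the largest moderated statistic, and 8 differences in each direction whose sign held without each library. The 28 lists, with 525 members of which 484 were tested, were written from general knowledge. The members, lists and this rule were chosen with earlier results of these data known. Of 23390 identifiers 23241 matched the TAIR10.1 reference gene table, which gave names, overlaps and promoters. The heat shock element core and leaving out Col libraries for the warmth response were chosen after seeing the data. Just inside the filter were IAA5, NAC103 and CBF1, with a third-highest TPM of 1.15, 1.18 and 1.21, and just outside IAA6, PR1 and HSFB3, with 0.827, 0.845 and 0.907. The alternatives were pseudocounts of 0.1 and 5, no filter or a mean of at least 5 TPM, median-of-ratios and quantile scaling, the 6 ino80 libraries alone, the replicate number as a block and leaving out each library. Fragments per library were estimated from the steps between low TPM values and are approximate.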

Additional observations from a re-analysis of the deposited data

Results flagged for a closer look

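Each of the following 43 values is the change in ino80 minus the change in Col after 1 h at 27 °C, on the log2 scale ± SE with n = 3 per group. All were singled out because limma's test of that difference gave an adjusted p under 0.05 over 19190 genes. For 27 of them the call also held under every alternative run.

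Among these 27, AT1G12030 (-2.47 ± 0.19) fell in ino80 and changed by -0.12 in Col, where it was low at both temperatures. The sulfur genes SDI1 (-1.42 ± 0.17), LSU1 (-1.52 ± 0.21) and SHM7 (-0.61 ± 0.11) fell by more in ino80. The change was also lower in ino80 for the phenylpropanoid genes PAL2 (-0.50 ± 0.05), 4CL1 (-0.55 ± 0.07) and PAL1 (-0.37 ± 0.06), the flowering repressor CDF1 (-0.51 ± 0.09) and PIN3 (-0.52 ± 0.09). The nitrogen genes NIA1 (-1.27 ± 0.11), NIR1 (-0.48 ± 0.08) and ASN2 (-0.59 ± 0.08) and LOX2 (-0.72 ± 0.08) rose by less in ino80. In AT3G28270, annotated as a transmembrane protein, the rise was 1.69 ± 0.06 in Col and 0.71 ± 0.06 in ino80 (difference -0.98 ± 0.08). EXO, a growth gene induced by brassinosteroid, rose by 1.34 ± 0.09 in Col and 0.35 ± 0.09 in ino80 (difference -0.99 ± 0.12). TRM13 rose by 1.44 ± 0.12 in Col, and its groups overlapped in ino80 (difference -1.29 ± 0.17). AT5G12110, annotated as elongation factor 1-beta 1, rose in both, by 2.41 ± 0.08 and 1.42 ± 0.08 (difference -0.99 ± 0.11).

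Toward higher in ino80, the touch and wound gene WRKY40 (1.55 ± 0.20), the xyloglucan gene XTH22 (0.85 ± 0.12), the ethylene gene ACS6 (0.86 ± 0.12) and the clock gene CHE (0.51 ± 0.09) differed. The glycine-rich protein gene AT1G07135 read 7.55, 6.32 and 6.88 TPM in Col at 21 °C and 1.92, 1.49 and 1.81 at 27 °C, and 2.66, 1.51 and 3.74 and 2.14, 3.04 and 3.86 in ino80 (difference 1.70 ± 0.27). DIN10, a sugar-starvation gene, fell by less in ino80 (difference 0.54 ± 0.08). The chloroplast genome genes ATCG00350 (2.99 ± 0.35), ATCG00270 (2.24 ± 0.33), ATCG00020 (1.69 ± 0.21) and ATCG00490 (1.52 ± 0.20) were higher at 27 °C than at 21 °C in ino80 on average and lower in Col. Of these, the change of ATCG00350 in ino80 was not called (adjusted p = 0.053).

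The other 16 differences were not called under at least 1 alternative. HSP90.1 (-0.57 ± 0.11) and ARR6 (0.65 ± 0.13) were not called without Col 27 °C replicate 2 or 3 or ino80 27 °C replicate 1, with adjusted p up to 0.056 and 0.0612. HSP17.4 (-0.93 ± 0.19) had an adjusted p up to 0.0514, under a pseudocount of 5 or without ino80 27 °C replicate 2. ZAT6 (0.71 ± 0.14) had one up to 0.0621, without Col 27 °C replicate 2 or 3 or ino80 27 °C replicate 1 or 2. For HSP90.2 (-0.34 ± 0.07) it was up to 0.0624, without Col 21 °C replicate 3, Col 27 °C replicate 2 or 3 or any ino80 27 °C library. For SZF2 (0.46 ± 0.10) it was up to 0.0752, without Col 27 °C replicate 2 or 3, ino80 21 °C replicate 1 or 2 or ino80 27 °C replicate 1 or 2. The rest failed with no filter on low TPM and without at least 5 of the 12 libraries. They are BR6OX2 (0.41 ± 0.09, up to 0.101), ARR5 (0.61 ± 0.13, up to 0.0788), LDOX (-0.47 ± 0.10, up to 0.0788), ATCG01120 (1.999 ± 0.43, up to 0.0796), ATCG01110 (1.64 ± 0.38, up to 0.102), IRT1 (-0.76 ± 0.18, up to 0.0979), APR3 (-0.43 ± 0.10, up to 0.218), GA2OX8 (0.65 ± 0.16, up to 0.175), NIA2 (-0.36 ± 0.08, up to 0.124) and JAZ9 (-0.41 ± 0.10, up to 0.115). JAZ9, NIA2 and IRT1 were also not called after median-of-ratios or quantile scaling, APR3 after quantile scaling, GA2OX8, JAZ9 and ATCG01110 with a pseudocount of 0.1 and LDOX with one of 5. Where these failed, ino80 27 °C replicate 2 was among the libraries left out for all 10.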

How the results depend on the processing

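No called change or genotype difference of a gene named at 1 h changed sign under any alternative run. For the genotype differences that were named by their own rule, a sign that held without each library was a condition of that rule. Their stable sign when a library was left out therefore only reflects the choice and is no check of them. The balance of 2 counts did turn. Genotype differences went from 209 higher and 152 lower in ino80 to 214 and 225 without Col 21 °C replicate 2. Without 1 library, 2275 to 3280 genes rose and 2562 to 3524 fell at 1 h, 406 to 434 changed at least 2-fold, 186 to 439 differed between the genotypes and 10003 to 11284 changed at 12 h. The 2-fold count was 660 with a pseudocount of 0.1 and 210 with one of 5, against 413. The 12 h split moved from 7458 higher and 3783 lower to 5242 and 5424 after median-of-ratios scaling and 5359 and 5390 after quantile normalization.

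Small list counts moved most. Falling large chaperones numbered 1 with median-of-ratios scaling, with the 6 ino80 libraries alone and with the replicate block, against 0. Rising brassinosteroid genes numbered 2 under the same alternatives and quantile normalization, against 1. Rising ethylene genes numbered 2 with no filter, against 1. Falling heat shock factors numbered 1 at a mean TPM of at least 5 and with the 6 ino80 libraries alone, and falling splicing factors 1 with those libraries and with median-of-ratios scaling, each against 2. Falling nitrate genes numbered 1 with no filter and with quantile normalization, against 2. Rising splicing factors numbered 8 with quantile normalization, against 5, and rising light signalling genes 5 with the replicate block, against 3. Without 1 library the ranges were 3 to 7 rising auxin genes, 4 to 9 falling touch and wound genes, 1 to 2 rising and 2 to 5 falling brassinosteroid genes, 0 to 1 falling large chaperones and 1 to 3 falling INO80 and SWR1 genes. They were 1 to 2 for falling heat shock factors, splicing factors and nitrate genes.

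Of 187 named genes 16 had their call in ino80 changed by at least 1 alternative, and of 43 differences between genotypes 16 did. Replicate numbers were not found to pair the libraries: same-numbered ino80 libraries deviated with r from -0.042 to 0.049, none over 0.1, and 1 library correlated best with its own number. With the replicate block 2999 genes rose, 3340 fell, 413 changed at least 2-fold, 363 differed between the genotypes and 11042 changed at 12 h. The genotype differences of APR3, GA2OX8 and NIA2 and the change of NIA1 in ino80 were not called with the block (adjusted p of 0.0656, 0.0666, 0.0683 and 0.0641). Changes of genes with few TPM are limited by depth, since about 0.1 TPM is 1 fragment in a gene of 1 kb.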
